A study of Mus musculus with 30 samples.

Results

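The genes described here are 40 targets of the transcription factor NRF2 and enzymes of glutathione metabolism, read by symbol from a table of 23284 mouse genes measured by RNA sequencing in 30 lung tumours. The list was drawn up by gene function, with earlier results of these data known. A minimum mean of 10 normalized counts over the 30 tumours was passed by 14539 genes, among them 38 of the 40. The 2 that fell short were Gsta1, with a mean of 6.15, and Gstm3, with a mean of 8.46.

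The tumours were induced by K-RAS in mice, and the labels name no strain, age, allele or dose. They describe mice given the antioxidant N-acetylcysteine (NAC), mice given vitamin E and untreated mice, with 5 animals per treatment and 2 tumours per animal, so every tumour in the study carries the K-RAS lesion. The columns of the table are headed by a letter (A, B or C), a first digit with 5 values, a second digit with 2 values and an index sequence. The sample titles also use letters, but each of those occurs under all 3 treatments, and no source used here ties a column letter to a treatment. Results are therefore given by letter only. The letter with the first digit is taken as the animal from the shape of the name, which gives 5 animals and 10 tumours per letter, and the 2 tumours of an animal (such as A10 and A11) are called sister tumours.

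NRF2, encoded by Nfe2l2, is held at low levels by KEAP1, which delivers it to a CUL3 ubiquitin ligase. Electrophiles and oxidants modify KEAP1, NRF2 accumulates, pairs with a small MAF protein and binds antioxidant response elements near genes for glutathione synthesis, conjugation, NADPH supply and iron storage. In the lung, club cells of the airway are rich in xenobiotic-metabolizing enzymes, and several of the genes below are also known as genes of those cells.

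Total recovered reads were 18322631 to 24408946 per tumour, and 16490 to 17297 genes were above 0 in each. The 12 index sequences recur up to 3 times along the table. The first use covers all 5 A animals and B1, the second B2 to B5 with C1 and C2, and the third C3 to C5. No source says whether a use marks a sequencing run. Letter and index use largely overlap, and letters can be compared within a use only through B1 and through C1 and C2. Tumours C21, C11 and A11 had the highest sums of 10 skeletal muscle genes, at 124529, 21977 and 2495 normalized counts, and the next tumour had 218. Nothing beyond the animal number in the labels says that the animals were handled independently. The p-values of tests on animal means therefore measure the spread between these 15 animals. Those of the test of animals within letters rest on the spread between sister tumours.

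Higher levels in A than in B, and in B than in C, were found for the alpha-class glutathione transferase genes Gsta2 and Gsta3 and for Ephx1, the microsomal epoxide hydrolase gene. Gclc, for the catalytic subunit of glutamate-cysteine ligase, was lower in A and in B than in C. In A against B, 13 of the 38 genes were higher and 0 were lower (limma, Benjamini-Hochberg adjusted over all 14539 genes), where 15.3% of all genes were called, 8.78% higher and 6.49% lower. In A against C, 17 were higher and 5 lower, where 44.8% of all genes were called, 22.9% higher and 21.9% lower. In B against C, 3 were higher and 3 lower, and the share of all genes called was 17%, with 8.26% higher and 8.71% lower. The members' shares called were 34.2%, 57.9% and 15.8%, so the B against C share was near that of all genes. Over the 38 genes the median log2 difference was 0.16 for A minus B, 0.17 for A minus C and 0.00 for B minus C, and over all genes it was 0.00, 0.00 and 0.01. In all, 22 of the 38 passed in at least 1 contrast, where 50.4% of all genes did, and 3 passed in all 3, where 1.02% of all genes did. The contrasts share animals. Without the minimum mean all 40 genes were tested, and 24 were called in A against C, 19 higher and 5 lower. An F test over the 3 letters passed 20 of the 38, where 45.2% of all genes passed. Summed club cell markers followed the order of Gsta2 and Gsta3, with medians of 2745640, 1194100 and 921056 normalized counts in A, B and C tumours. Marker sums of some other cell types, given below, fell in the same order. The part of these cells in the differences was not tested. In bulk tumours fewer cells of a type and less RNA per cell cannot be told apart.

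These calls depended on which animals and which terms were in the model. Leaving out 1 animal at a time kept 21 of the 22 calls of A against C, 4 of the 13 of A against B and 2 of the 6 of B against C, and turned no direction. The A against B count was 4 without B3, 5 without A5, 6 without A1, 7 without A4 or without B2, 8 without A2 or without B4, and 17 without A3. The B against C count was 3 without B5, without C1 or without C4. Without tumours A11, C11 and C21, the counts were 11, 24 and 6. With index use added to the model, a setting chosen after seeing the data, 3 of the 41 calls passed, 37 kept their direction, and 26 had a difference within 1.5 times of the value without it. The 3 were those of Gsta3 and Ephx1 in A minus C and of Abcc4 in B minus C, and no other of the 41 passed. That model also called members lower in A that were not among the 41, 1 in A minus B and 1 in A minus C.

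**Figure D1:**
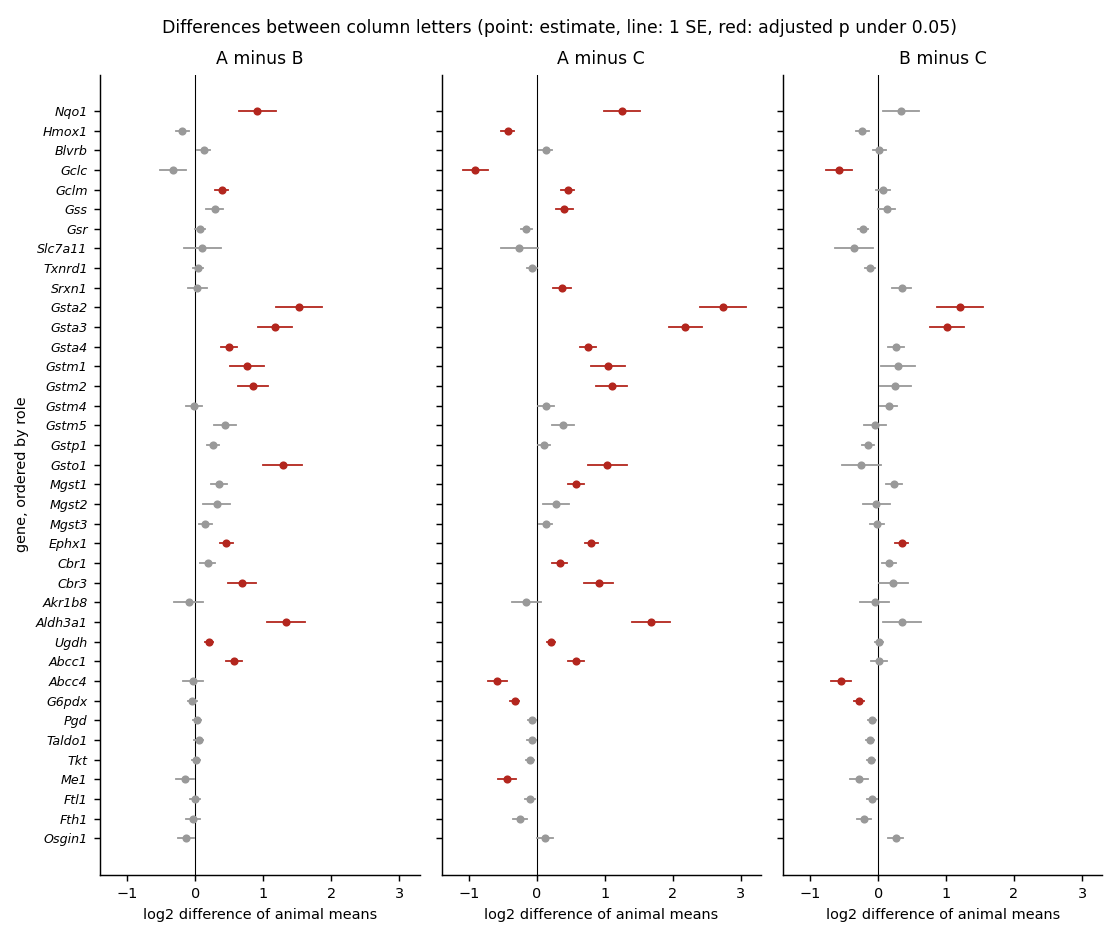
Log2 difference of animal means (horizontal axis) for the 38 genes in A minus B, A minus C and B minus C, with genes ordered by role down the page, lines of 1 SE and red for adjusted p under 0.05. The 13 red points of A minus B all lie right of 0, while 5 of the 22 red points of A minus C and 3 of the 6 of B minus C lie left of it.

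The alpha-class glutathione transferases, which conjugate glutathione to electrophiles and reduce lipid hydroperoxides, held the 2 largest A minus C differences among the members, those of Gsta2 and Gsta3. Gsta3 had a lowest, median and highest level of 3413, 6372 and 7787 normalized counts in A tumours, 1668, 2375 and 6727 in B tumours, and 877, 1205 and 1903 in C tumours. The A and C tumours did not overlap, and the B tumours overlapped both. On the log2(value + 1) scale used for all differences below, Gsta3 was 1.17 ± 0.25 (SE, 5 animals per letter) higher in A than in B (adjusted p = 0.0173, limma), 2.18 ± 0.25 higher in A than in C (adjusted p = 5.9e-05) and 1.01 ± 0.25 higher in B than in C (adjusted p = 0.0128). All 3 calls held without any single animal (A minus B adjusted p up to 0.0495, limma). With index use in the model the A minus C difference was 2.36 and passed (adjusted p = 0.0341). A minus B (1.32) and B minus C (1.04) then did not pass (adjusted p = 0.147 and 0.0834). Within the index uses, animal B1 averaged 11.21 on the log2 scale beside 11.94 to 12.76 for the 5 A animals, and C1 and C2 averaged 9.99 and 10.73 beside 10.89 to 12.28 for B2 to B5.

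Gsta2 followed the same order at a lower level. It had 103, 334 and 372 normalized counts (lowest, median, highest) in A tumours, 50.5, 87.2 and 310 in B tumours, and 24.9, 34.9 and 119 in C tumours. Only tumour A30 among the A tumours fell within the range of C, and tumours B50 and C21 stood above the rest of their letters. The differences were 1.52 ± 0.34 for A minus B (adjusted p = 0.0186, limma), 2.73 ± 0.34 for A minus C (adjusted p = 0.000102) and 1.21 ± 0.34 for B minus C (adjusted p = 0.0251). The first did not pass without B3 (1.34 to 1.79 over the 15 animals left out in turn) and the last did not pass without B5, C1 or C4. With index use in the model the 3 differences were 1.46, 2.36 and 0.90 and did not pass (adjusted p = 0.213, 0.0917 and 0.261). Gsta2 shares 64.2% of its transcript's 50-base words with transcripts of other genes, 44.8% with Gsta1, so reads could have been split between copies and its values are uncertain. Gsta1, with 89.7% shared, had 1.87, 9.58 and 24.8 normalized counts in A tumours, 0.985, 4.11 and 13.5 in B tumours, and 0, 1.06 and 13.5 in C tumours. It was at 0 in 3 C tumours and below the minimum mean. Without that minimum it was 1.78 ± 0.48 higher in A than in C (adjusted p = 0.00959, limma over 19186 genes), and A minus B (0.71 ± 0.48) and B minus C (1.07 ± 0.48) did not pass (adjusted p = 0.36 and 0.164).

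Gsta4, which acts on the lipid peroxidation product 4-hydroxynonenal, had 3530, 5281 and 6723 normalized counts in A tumours, 2689, 3705 and 5386 in B tumours, and 2667, 3071 and 3497 in C tumours. No A tumour overlapped with C. It was 0.49 ± 0.12 higher in A than in B (adjusted p = 0.0202, limma), a call lost without A1, A5 or B3, and 0.76 ± 0.12 higher in A than in C (adjusted p = 0.000302). The B minus C difference of 0.26 ± 0.12 did not pass (adjusted p = 0.131). A minus B and A minus C were 0.47 and 0.72 with index use in the model and did not pass (adjusted p = 0.255 and 0.139). Gsta1, Gsta2 and Gsta4 lie near each other on chromosome 9 (GENCODE M21, GRCm38), with Gsta4 at chr9:78182774-78209349 and Gsta2 at chr9:78331018-78355788, whereas Gsta3 is on chromosome 1 at chr1:21240589-21265661.

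Microsomal epoxide hydrolase, Ephx1, which opens reactive epoxides to diols, was the remaining member called in every contrast. Its levels were 4185, 5144 and 5929 normalized counts in A tumours, 3074, 3711 and 4855 in B tumours, and 2451, 2778 and 3715 in C tumours. A and C tumours did not overlap, and the highest B tumour was B50. The differences were small beside those of Gsta2 and Gsta3 but tight, at 0.46 ± 0.09 for A minus B (adjusted p = 0.0161, limma), 0.80 ± 0.09 for A minus C (adjusted p = 6.67e-05) and 0.34 ± 0.09 for B minus C (adjusted p = 0.0208). The B minus C call was lost without B5, C1 or C4. With index use in the model the A minus C difference was 0.78 and passed (adjusted p = 0.0459). A minus B (0.51) and B minus C (0.26) then did not pass (adjusted p = 0.118 and 0.214).

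**Figure D2:**
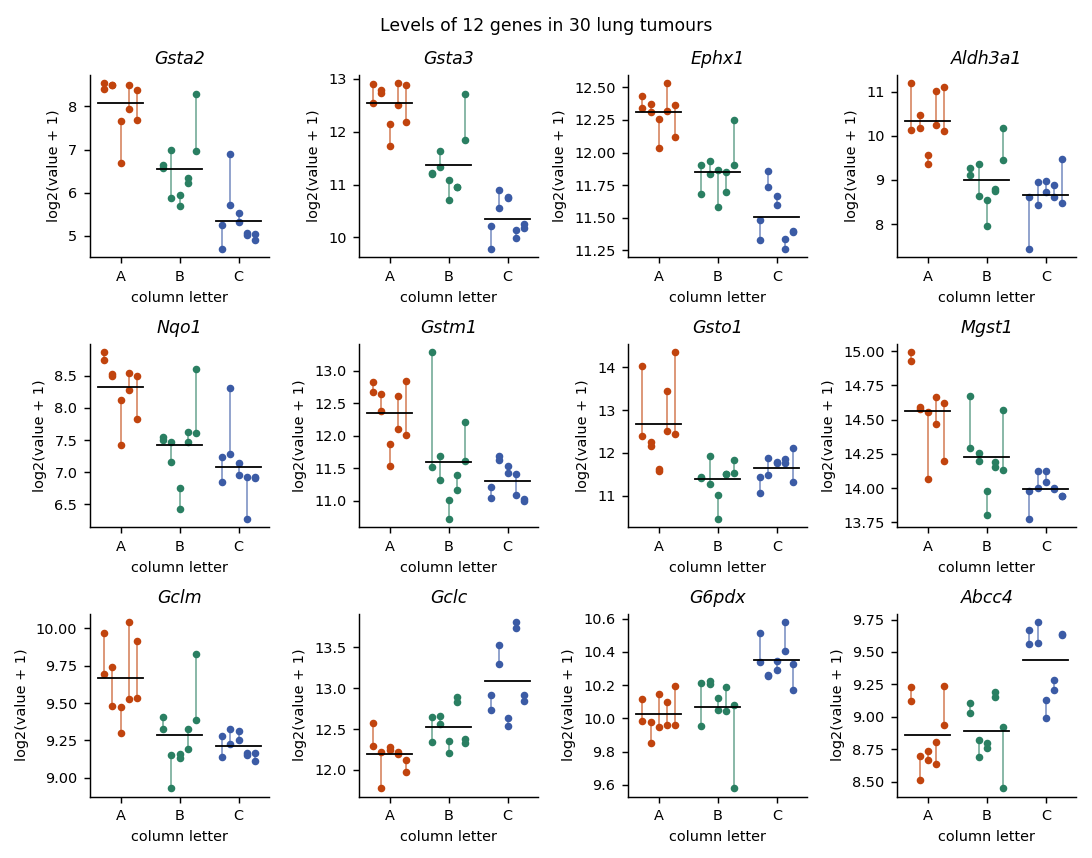
Log2(value + 1) of 12 genes in the 30 tumours by column letter, where each point is a tumour, a vertical line joins the sister tumours of an animal and the black bar is the mean of 5 animal means. Gsta2, Gsta3 and Ephx1 step down from A to B to C, Gclc is highest in C, and Gsto1 and Gstm1 show sister tumours far apart.

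The start-site windows of 5 of the 6 genes called between B and C are printed, with none for Gclc. They show where the core of the antioxidant response element, TGACNNNGC, occurs near the starts of the 5 genes. The windows are from RefSeq (GRCm38.p6), 250 bases before to 50 after the start site, in lower case on the gene's strand, with the 9-base core (either strand) in capitals. In turn they lie at chr1:21240335-21240634 (+), chr9:78347096-78347395 (-), chr1:181017520-181017819 (-), chrX:74428831-74429130 (-) and chr14:118706170-118706469 (-).
Gsta3: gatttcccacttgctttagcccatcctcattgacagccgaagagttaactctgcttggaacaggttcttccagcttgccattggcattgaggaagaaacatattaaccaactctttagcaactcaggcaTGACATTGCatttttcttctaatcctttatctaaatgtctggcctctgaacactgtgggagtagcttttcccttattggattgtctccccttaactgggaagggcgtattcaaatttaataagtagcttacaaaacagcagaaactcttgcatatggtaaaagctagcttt
Gsta2: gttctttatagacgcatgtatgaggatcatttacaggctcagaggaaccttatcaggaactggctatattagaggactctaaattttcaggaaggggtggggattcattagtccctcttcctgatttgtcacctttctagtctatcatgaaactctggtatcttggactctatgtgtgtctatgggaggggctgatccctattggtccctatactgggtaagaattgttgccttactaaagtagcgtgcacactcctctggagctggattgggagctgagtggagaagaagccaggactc
Ephx1: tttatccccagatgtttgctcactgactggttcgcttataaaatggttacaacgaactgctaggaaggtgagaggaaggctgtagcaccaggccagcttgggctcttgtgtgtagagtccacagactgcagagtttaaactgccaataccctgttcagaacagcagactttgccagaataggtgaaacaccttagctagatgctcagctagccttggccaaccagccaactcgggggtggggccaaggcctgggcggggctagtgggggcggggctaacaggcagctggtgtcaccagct
G6pdx: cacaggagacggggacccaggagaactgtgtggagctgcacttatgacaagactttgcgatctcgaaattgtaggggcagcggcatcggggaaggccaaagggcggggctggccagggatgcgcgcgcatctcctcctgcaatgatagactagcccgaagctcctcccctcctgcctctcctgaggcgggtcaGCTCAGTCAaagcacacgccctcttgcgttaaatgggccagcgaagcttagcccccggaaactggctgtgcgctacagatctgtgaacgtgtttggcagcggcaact
Abcc4: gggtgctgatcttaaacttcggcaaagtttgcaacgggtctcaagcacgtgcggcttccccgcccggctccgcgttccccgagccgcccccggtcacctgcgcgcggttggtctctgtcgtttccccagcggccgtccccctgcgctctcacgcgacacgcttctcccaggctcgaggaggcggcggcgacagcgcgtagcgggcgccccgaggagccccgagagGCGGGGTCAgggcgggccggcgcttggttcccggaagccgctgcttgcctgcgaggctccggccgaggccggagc

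The Gsta3 match begins 121 bases before the start site and reads TGACATTGC on the gene's strand. Those of G6pdx and Abcc4 begin 57 and 25 bases before it and read on the opposite strand, and a second window of Abcc4, at chr14:118676882-118677181 (-), holds the core too. The windows of Gsta2 and Ephx1 hold none, which says only that these letters are not in these windows. Of the 40 genes 34 had a window, and 11 of these (32.4%) held the core (Abcc4, G6pdx, Gclm, Gsta3, Gstm5, Me1, Mgst1, Pgd, Srxn1, Txnrd1 and Ugdh), where 3781 of 27025 genes did (14.0%). Matches were found in genes higher in A (Gsta3, Gclm, Mgst1, Ugdh and Srxn1), in genes lower in A (Abcc4, G6pdx and Me1) and in genes that passed in no letter contrast (Gstm5, Pgd and Txnrd1). A match is a description of sequence and not evidence of binding.

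Among the mu-class transferases, which form a row on chromosome 3 with Gstm5 at chr3:107895821-107898686 and Gstm4 at chr3:108040408-108044894, Gstm1 and Gstm2 were higher in A. Gstm1, a cytosolic transferase for aromatic electrophiles, had 2973, 5808 and 7357 normalized counts in A tumours, 1686, 2808 and 9982 in B tumours, and 2037, 2531 and 3285 in C tumours. Tumour B10 was above every A tumour. The A minus B difference of 0.76 ± 0.25 passed narrowly (adjusted p = 0.0489, limma), was lost on leaving out any of 12 of the 15 animals, and was 0.61 with edgeR's quasi-likelihood test on reads (adjusted p = 0.139). A minus C was 1.05 ± 0.25 (adjusted p = 0.00336) and held without any single animal. With index use in the model, where B1 is the only B animal beside the A animals, Gstm1 turned to -0.05 in both A minus B and A minus C.

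Gstm2 had 772, 1667 and 2071 normalized counts in A tumours, 533, 774 and 1694 in B tumours, and 513, 651 and 930 in C tumours. It was 0.85 ± 0.23 higher in A than in B (adjusted p = 0.0262, limma; lost without A1, A2, A4, A5, B2, B3 or B4) and 1.10 ± 0.23 higher in A than in C (adjusted p = 0.00156). With index use in the model these were 0.33 and 0.39 (adjusted p = 0.664 and 0.654). Gstm4 and Gstm5 passed in no contrast, at 266 to 728 and 80.6 to 352 normalized counts over the 30 tumours. Gstm3 was at 9.24 to 24.8 in A tumours, 1.11 to 8.65 in B tumours and 0 to 6.53 in C tumours, so that no A tumour overlapped with B or C. It was below the minimum mean, and without that minimum it was 1.79 ± 0.32 higher in A than in B (adjusted p = 0.0188, limma over 19186 genes) and 1.73 ± 0.32 higher in A than in C (adjusted p = 0.0012). Gstm1, Gstm2 and Gstm3 share 23.2%, 9.36% and 28.8% of their 50-base words with other transcripts, which leaves part of their counts uncertain.

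Gsto1, an omega-class enzyme that reduces dehydroascorbate and methylated arsenic, had widely spread values in A. It ranged from 3060 through a median of 5470 to 20857 normalized counts in A tumours, from 1414 through 2846 to 3918 in B tumours, and from 2134 through 3480 to 4415 in C tumours. All 3 letters overlapped, and sister tumours of A5 differed by 1.91 on the log2 scale. The gene was 1.28 ± 0.28 higher in A than in B (adjusted p = 0.0186, limma; lost without A5 or B3) and 1.04 ± 0.28 higher in A than in C (adjusted p = 0.00855). Both differences, 1.26 and 1.19 with index use in the model, then did not pass (adjusted p = 0.211 and 0.294). Gstp1, the pi-class enzyme, had 642, 789 and 928 normalized counts in A tumours, 505, 676 and 724 in B tumours, and 619, 735 and 805 in C tumours and passed in no contrast, and 62.3% of its 50-base words are shared with Gstp2.

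Of the membrane-bound microsomal transferases, Mgst1 was among the most abundant members, with 17179, 24552 and 32563 normalized counts in A tumours, 14307, 18755 and 26182 in B tumours, and 14041, 16369 and 17874 in C tumours. It was 0.57 ± 0.12 higher in A than in C (adjusted p = 0.00157, limma), and its A minus B difference of 0.34 ± 0.12 did not pass (adjusted p = 0.061). With index use in the model A minus C was 0.27 (adjusted p = 0.539). Mgst2 and Mgst3 passed in no contrast. Mgst2 had 449, 680 and 1014 normalized counts in A tumours, 374, 510 and 1238 in B tumours, and 429, 516 and 861 in C tumours. Mgst3 had 761, 891 and 1035 in A tumours, 667, 754 and 1024 in B tumours, and 687, 819 and 938 in C tumours, so the letters overlapped almost fully in both.

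The classical NRF2 reporter Nqo1, a quinone reductase, had 171, 359 and 464 normalized counts in A tumours, 85.1, 179 and 389 in B tumours, and 76.6, 122 and 317 in C tumours. All letters overlapped, and tumour C21 stood apart at the top of C. The difference was 0.91 ± 0.27 for A minus B (adjusted p = 0.0341, limma), lost without A1, A2, A4, A5, B2, B3 or B4, 1.25 ± 0.27 for A minus C (adjusted p = 0.0019) and 0.34 ± 0.27 for B minus C (adjusted p = 0.407). With index use in the model A minus C was 0.77 (adjusted p = 0.433). Hmox1, which opens haem to biliverdin and is also induced by NRF2, ran the other way, with 1516, 1633 and 2223 normalized counts in A tumours, 1352, 2009 and 2316 in B tumours, and 1953, 2297 and 2541 in C tumours, and was lower in A than in C (log2 difference -0.43 ± 0.10, adjusted p = 0.00278). That difference was -0.70 with index use in the model (adjusted p = 0.0696). Blvrb, the biliverdin reductase B gene, passed in no contrast and ranged from 465 to 842 normalized counts.

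Aldh3a1, an aldehyde dehydrogenase that oxidizes lipid-derived aldehydes, had 658, 1185 and 2348 normalized counts in A tumours, 246, 497 and 1160 in B tumours, and 171, 407 and 708 in C tumours. It was 1.34 ± 0.28 higher in A than in B (adjusted p = 0.0168, limma) and 1.68 ± 0.28 higher in A than in C (adjusted p = 0.000446). Both calls held without any single animal (A minus B adjusted p up to 0.0495). With index use in the model the differences were 1.15 and 1.75 and did not pass (adjusted p = 0.218 and 0.111). The carbonyl reductase gene Cbr3 was 0.68 ± 0.21 higher in A than in B (adjusted p = 0.041), lost without A1, A2, A4, A5, B2, B3 or B4, and 0.91 ± 0.21 higher in A than in C (adjusted p = 0.00312). Its levels were 494, 829 and 1331 normalized counts in A tumours, 259, 527 and 779 in B tumours, and 362, 445 and 517 in C tumours, so that all letters overlapped, and with index use in the model its differences were 0.29 and 0.42 (adjusted p = 0.695 and 0.611). Its neighbour Cbr1 passed in A minus C and in no other contrast, at 0.34 ± 0.11 (adjusted p = 0.0195), with 1202, 1525 and 2106 normalized counts in A tumours, 1124, 1341 and 1915 in B tumours, and 1139, 1216 and 1344 in C tumours, and turned to -0.04 with index use in the model. Ugdh, which makes the glucuronic acid donor, differed little but with little spread, by 0.20 ± 0.06 in A minus B (adjusted p = 0.0363; lost without A1, A2, A4, A5, B2, B3 or B4) and 0.21 ± 0.06 in A minus C (adjusted p = 0.0108). These were 0.10 and 0.04 with index use in the model (adjusted p = 0.603 and 0.872). Its levels were 785, 903 and 1009 normalized counts in A tumours, 722, 776 and 864 in B tumours, and 713, 762 and 851 in C tumours. Akr1b8, an aldo-keto reductase, passed in no contrast and had 703, 841 and 1394 normalized counts in A tumours, 634, 1024 and 2007 in B tumours, and 729, 1035 and 1408 in C tumours.

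The subunits of glutamate-cysteine ligase, the enzyme of the first step of glutathione synthesis, moved in opposite directions. The catalytic subunit gene Gclc had 3503, 4765 and 6112 normalized counts in A tumours, 4741, 5686 and 7611 in B tumours, and 5948, 7710 and 14386 in C tumours. It was lower in A than in C (log2 difference -0.90 ± 0.19, adjusted p = 0.00156, limma) and stayed so when any single animal was left out, and lower in B than in C (-0.57 ± 0.19, adjusted p = 0.0453), a call lost on leaving out any of 11 of the 15 animals. With index use in the model these were -0.90 and -0.59 and did not pass (adjusted p = 0.235 and 0.19). The modifier subunit gene Gclm had 630, 783 and 1054 normalized counts in A tumours, 487, 612 and 906 in B tumours, and 553, 585 and 640 in C tumours. It was 0.38 ± 0.10 higher in A than in B (adjusted p = 0.0244), lost without A1, A4, A5, B2 or B3, and 0.45 ± 0.10 higher in A than in C (adjusted p = 0.00226). The Gclm differences were 0.30 and 0.32 with index use in the model and did not pass (adjusted p = 0.368 and 0.41).

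Gss, the glutathione synthetase of the second step, was higher in A than in C by 0.41 ± 0.13 (adjusted p = 0.0183, limma), with 972, 1481 and 1714 normalized counts in A tumours, 872, 1107 and 1787 in B tumours, and 930, 1079 and 1265 in C tumours, and turned to -0.06 with index use in the model. Srxn1, which repairs overoxidized peroxiredoxins, was 0.37 ± 0.14 higher in A than in C (adjusted p = 0.0389), and the call was lost without A1, A4, C1, C2 or C3. It had 738, 881 and 1227 normalized counts in A tumours, 687, 897 and 1041 in B tumours, and 532, 677 and 915 in C tumours, and all letters overlapped. Its A minus C difference was 0.28 with index use in the model (adjusted p = 0.579). The glutathione reductase gene Gsr, the cystine transporter gene Slc7a11 and the thioredoxin reductase gene Txnrd1 passed in no contrast. Slc7a11 had 111, 148 and 399 normalized counts in A tumours, 109, 163 and 262 in B tumours, and 133, 216 and 384 in C tumours, a wide spread within each letter. Txnrd1 was even, with 2512, 2829 and 3381 normalized counts in A tumours, 2358, 2828 and 3263 in B tumours, and 2758, 2992 and 3392 in C tumours. Gsr ranged from 2070 to 3416 over the 30 tumours.

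NADPH is the reductant of glutathione and thioredoxin reductases. Of 5 genes for its supply or for the pentose phosphate pathway, 2 were lower in A than in C. The other 3 (Pgd, Taldo1 and Tkt) passed in no contrast. G6pdx, which opens the pentose phosphate pathway, had 921, 1010 and 1169 normalized counts in A tumours, 764, 1098 and 1198 in B tumours, and 1153, 1288 and 1530 in C tumours. Its differences of -0.33 ± 0.07 for A minus C (adjusted p = 0.0018, limma) and -0.28 ± 0.07 for B minus C (adjusted p = 0.0131) held without any single animal, and with index use in the model they were -0.34 and -0.28 but did not pass (adjusted p = 0.219 and 0.0943). Me1, the cytosolic malic enzyme, was lower in A than in C (log2 difference -0.44 ± 0.13, adjusted p = 0.016), with 3129, 3445 and 4489 normalized counts in A tumours, 2970, 4051 and 5240 in B tumours, and 4026, 4832 and 5554 in C tumours. The difference was -0.89 with index use in the model (adjusted p = 0.0829).

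The 2 exporters of conjugates split. Abcc1 had 660, 872 and 1330 normalized counts in A tumours, 508, 619 and 914 in B tumours, and 537, 629 and 776 in C tumours. It was higher in A than in B by 0.56 ± 0.12 (adjusted p = 0.0168, limma) and than in C by 0.58 ± 0.12 (adjusted p = 0.0015). Both calls held without any single animal (A minus B adjusted p up to 0.0495). With index use in the model the differences were 0.53 and 0.60 and did not pass (adjusted p = 0.204 and 0.202). Abcc4 had 365, 436 and 604 normalized counts in A tumours, 349, 469 and 585 in B tumours, and 508, 755 and 849 in C tumours, and differed by -0.58 ± 0.14 in A minus C (adjusted p = 0.00459) and -0.55 ± 0.14 in B minus C (adjusted p = 0.0184). The B minus C call was lost without C1, and with index use in the model that difference was -0.78 (adjusted p = 0.0213) and A minus C was -0.99 (adjusted p = 0.0737). The ferritin genes Ftl1 and Fth1, which encode the iron storage shell, and Osgin1, a growth inhibitor, passed in no contrast. Fth1, the member with the highest mean, had 40280, 45003 and 52130 normalized counts in A tumours, 41700, 45272 and 56696 in B tumours, and 42014, 56029 and 65574 in C tumours. Osgin1 had 1107, 1298 and 1481 in A tumours, 1103, 1395 and 1971 in B tumours, and 1026, 1175 and 1380 in C tumours. Ftl1 ranged from 19007 to 26978 over the 30 tumours, and Pgd, Taldo1 and Tkt from 4094 to 5565, 3708 to 5015 and 4407 to 7061.

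Between genes, levels can be set side by side only per length, as mean normalized counts per kilobase of exons (GENCODE M21). Ftl1 had 16989, Fth1 14086 and Mgst1 10010, followed by Gsta4 with 3193, Gstm1 with 2611 and Gsto1 with 2336. The lowest members were Gsta1 with 6.44, Gstm3 with 6.46 and Slc7a11 with 14.6. Nqo1 stood at 142.

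Club cell markers moved with the letters in the same order as Gsta2 and Gsta3. All 8 markers (Scgb1a1, Scgb3a1, Scgb3a2, Cyp2f2, Cckar, Muc5b, Bpifa1 and Cyp4b1) were above 0 in all 30 tumours, and their sum ran from 1117930 to 3473770 normalized counts in A tumours, 602890 to 2600800 in B tumours and 626782 to 1414260 in C tumours. Scgb1a1, the secretoglobin of club cells, alone took a median of 11.0% of normalized counts in A tumours, 5.15% in B tumours and 3.82% in C tumours. The sum of the 10 alveolar type 2 markers ran the other way, from 1603700 to 2973730 in A tumours, 2152500 to 3556610 in B tumours and 3046250 to 3697860 in C tumours, with all 10 above 0 throughout. The sum of 9 macrophage markers had medians of 37923 in A tumours, 43380 in B tumours and 63374 in C tumours. The order of the club cell medians was not particular to club cells. Medians in A, B and C also fell for endothelial (22472, 18854 and 16292) and T cell markers (738, 563 and 526). The same held for B cell (841, 630 and 509), red blood cell (528, 443 and 261) and alveolar type 1 markers (123662, 117333 and 116380). The part of these cells in the differences was not tested.

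Members also followed the club cell marker sum within letters, over 15 animal means with letter means removed. The sum adds counts, so Scgb1a1 made up most of it, and a sum without Scgb1a1 was not examined. Of the members Gsta2 had r = 0.95 and Spearman rho = 0.98 (permutation p = 2e-05 and 1e-05, where 1e-05 is the smallest that 100000 permutations can give; 0.0168 and 0.0242 after adjustment over all genes), and r = 0.95 without A1 and A2, the animals farthest from the median sum. For Nqo1 r was 0.91 and rho 0.88 (adjusted permutation p = 0.0171 and 0.0291; r = 0.90 without A1 and A2), and for Gsta3 both were 0.90 (adjusted permutation p = 0.0171 and 0.0349; r = 0.92). Gclc had r = 0.00 and rho = 0.06 (adjusted permutation p = 0.999 and 0.944; r = -0.05). Over the 38 members the median r was 0.51 and 50% were above 0.5, against a median of -0.01 and 14.1% over all genes other than the markers, members included. These relations were examined after the marker sums had been seen.

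**Figure D3:**
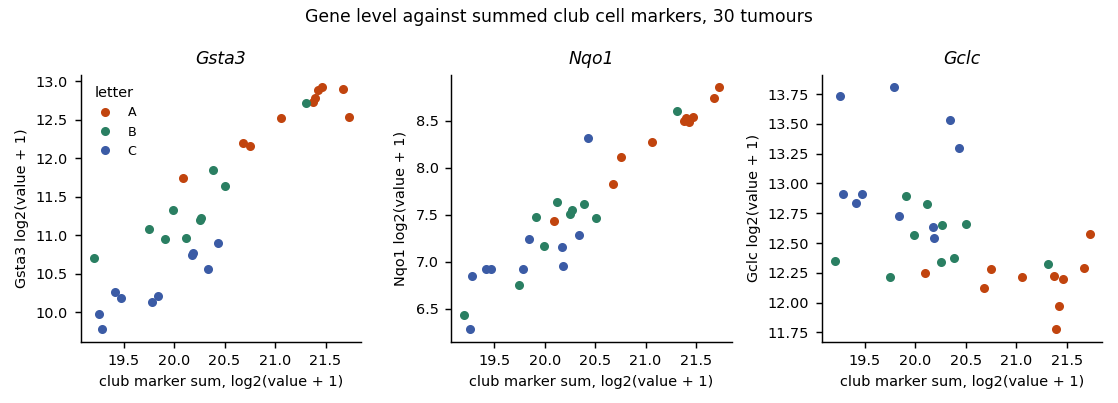
Log2(value + 1) of Gsta3, Nqo1 and Gclc against the log2 sum of 8 club cell markers in the 30 tumours, coloured by column letter. Gsta3 and Nqo1 rise with the marker sum within letters (r = 0.90 and 0.91 over 15 animals), and Gclc shows no such slope within letters (r = 0.00).

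Animals of the same letter differed in many of these genes by more than their sister tumours did. Sister tumours shared an index use, whereas the B animals and the C animals were split between uses. In B and C, spread between animals therefore includes any spread between index uses. In a moderated F test of animals within letters, 20 of the 38 genes passed, where 26.7% of all genes did (limma, adjusted over all genes). The median SD between sister tumours was 0.15 on the log2 scale for the members and 0.15 for all genes, and the median SD of animal means within letters was 0.20 and 0.16. Me1 had the highest fraction of within-letter variance between animals among the 38 genes, 0.93, with an SD of 0.06 between sister tumours and 0.23 between animals. The same fraction was 0.84 in Gclc, 0.77 in Abcc4, 0.74 in Akr1b8 and 0.73 in Srxn1. The C animals in particular spread in Gclc, from 12.59 for C3 to 13.77 for C4. By contrast Gsto1, Gstm1, Gstm5, Aldh3a1 and Tkt did not pass, and sister tumours of animal B1 differed by 1.76 in Gstm1.

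**Figure D4:**
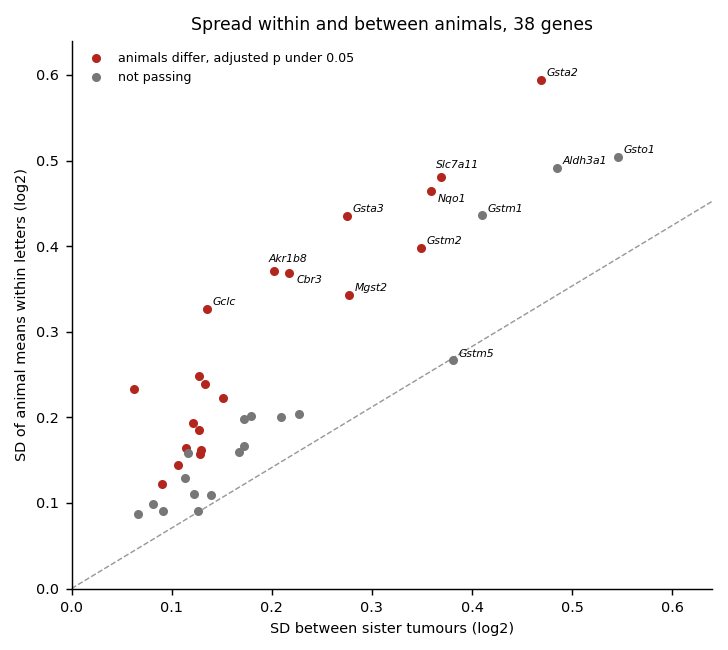
SD of animal means within letters (vertical, log2) against SD between sister tumours (horizontal, log2) for the 38 genes, red where animals differed at adjusted p under 0.05. The dashed line is the SD of animal means that sister-tumour spread alone would give, and Gsta2 and Gclc lie well above it while Gstm5 lies on it.

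The members varied together from animal to animal within letters. Over 703 pairs the median r was 0.38, with 37.7% of pairs above 0.5, against a median of 0.00 and 7.76% over all pairs of genes. The alpha-class genes correlated at 0.84 to 0.90 and Gstm1 with Gstm2 at 0.94. Akr1b8 correlated with Me1 at 0.89 and with Pgd at 0.82, and Gstp1 with Srxn1 at 0.90. These pairs do not mark a separate set, as Gstp1 had r = 0.81 with Cbr3 and 0.47 with Me1. No grouping of the members was tested. G6pdx ran against the alpha class, at -0.64 with Gsta3 and -0.62 with Gsta2. These values describe 15 animals that share letters and index uses, and genes are not independent replicates.

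**Figure D5:**
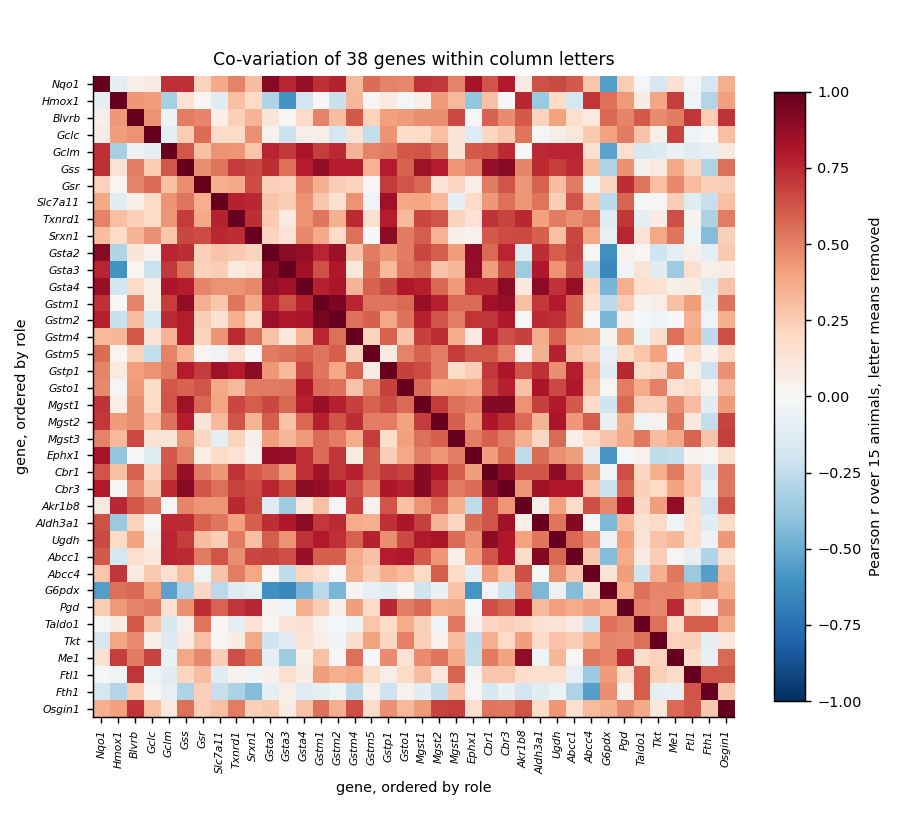
Pearson r over 15 animal means with letter means removed for all pairs of 38 genes, ordered by role on both axes, red for positive and blue for negative. The alpha-class block and the Gstm1 and Gstm2 pair are dark red (0.84 to 0.94), and G6pdx is blue against the alpha class (down to -0.64).

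Slopes on 3 chosen genes with letter in the model tested this over all genes. On Nqo1, 31 of 37 other members had a slope above 0, where 49.1% of all genes did. Of the 37, 8 passed with a positive slope (Gsta2, Gsta3, Gsta4, Gstm1, Gstm2, Ephx1, Cbr3 and Gss) and 0 with a negative one, where 4.48% of all genes passed, 3.93% positive and 0.543% negative. Gsta2 had the steepest, 1.17 ± 0.15 per log2 unit of Nqo1 (adjusted p = 0.00152, limma; r = 0.91, rho = 0.87, adjusted permutation p = 0.0244 and 0.042; r = 0.91 without A1 and B3). By the permuted r, 3 of the 8 passed (Ephx1, Gsta2 and Gsta4), and by the permuted rho 1 did (Gsta2). The count of slopes fell to 3 without A3 or without B3 and to 4 without B5. On Gstm1, 34 of 37 had a slope above 0, where 52.1% of all genes did. Of the 37, 8 passed with a positive slope (Gstm2, Gss, Cbr3, Mgst1, Cbr1, Gsta2, Mgst2 and Gsta4) and 0 with a negative one, where 2.33% of all genes passed, 1.68% positive and 0.653% negative. Gstm2 had a slope of 0.86 ± 0.09 (adjusted p = 0.000996; r = 0.94, rho = 0.94, adjusted permutation p = 0.0485 and 0.0826; r = 0.95 without A1 and A2). By the permuted r, 1 of the 8 passed (Gstm2), and by the permuted rho 0 did. The count of slopes on Gstm1 was 1 without A3 or without B3 and 5 without A1, A4, A5, B2 or C2. On Gclc, 31 of 37 had a slope above 0, where 51.3% of all genes did. Of these slopes 0 in members and 0% over all genes passed (limma), with 3 members and 1257 genes at an unadjusted p under 0.05. No other tool was run for slopes. The member closest to Gclc was Me1 (r = 0.68, rho = 0.72, adjusted permutation p = 0.171 and 0.487; r = 0.73 without C4 and C2).

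The 5 genes of the whole table most like Nqo1 over the 15 animal means, letters pooled, were Kcnmb4 (r = 0.98), Tyro3 (0.97), P2rx6 (0.97), Cckar (0.97) and Hs3st6 (0.97). Cckar is one of the 8 club cell markers above. With letter means removed their r values were 0.95, 0.94, 0.93, 0.97 and 0.93. None of the 40 listed genes was among the 5.

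Other genes of the pathway, listed by function, varied in direction. Of 7 regulators (Nfe2l2, Keap1, Cul3, Bach1 and the small MAF genes), none was higher and 2 were lower in A than in B, 4 were lower in A than in C, and 2 were lower in B than in C. Their shares lower were 28.6%, 57.1% and 28.6%, where 6.49%, 21.9% and 8.71% of all genes were lower. Nfe2l2 itself was lower in A than in C (-0.45 ± 0.08, adjusted p = 0.000664, limma) and in B than in C (-0.31 ± 0.08, adjusted p = 0.0168), and Bach1, a repressor at the same elements, was lower in A than in B (-0.34 ± 0.08, adjusted p = 0.0213). Maff, which encodes a small MAF partner, was lower in A than in C (-0.36 ± 0.06, adjusted p = 0.000672).

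Of 22 further reported NRF2 targets tested, 5 were higher and 0 lower in A than in B, 8 were higher and 2 lower in A than in C, and 2 were higher and 1 lower in B than in C. The shares called of 22.7%, 45.5% and 13.6% stood beside 15.3%, 44.8% and 17% of all genes, so A against C and B against C were near the background. Aldh1a1, a retinaldehyde dehydrogenase, was 1.44 ± 0.28 higher in A than in B (adjusted p = 0.0161, limma) and 1.76 ± 0.28 higher in A than in C (adjusted p = 0.000325). Cyp2a5, a cytochrome P450, was 2.90 ± 0.55 higher in A than in B (adjusted p = 0.0161) and 2.80 ± 0.55 higher in A than in C (adjusted p = 0.00118). Prdx6, a peroxiredoxin, was 0.97 ± 0.17 higher in A than in C (adjusted p = 0.000713), and the drug exporter gene Abcg2 was higher than in C by 0.74 ± 0.14 in A and 0.70 ± 0.14 in B (adjusted p = 0.000835 and 0.00403).

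Of 11 other transferase genes tested, 1 was higher in A than in B, 4 were higher in A than in C, and 1 was higher and 1 lower in B than in C. Their shares called, 9.09%, 36.4% and 18.2%, were below or near those of all genes. Of 19 other genes of the glutathione cycle, 3 were higher and 4 lower in A than in B, 6 were higher and 5 lower in A than in C, and 2 were higher in B than in C. The shares called were 36.8%, 57.9% and 10.5%, in both directions, where 15.3%, 44.8% and 17% of all genes were called. Ggt7, of the gamma-glutamyltransferase family, was higher in A than in B (0.82 ± 0.22, adjusted p = 0.0279, limma), in A than in C (1.51 ± 0.22, adjusted p = 0.000248) and in B than in C (0.68 ± 0.22, adjusted p = 0.0477). Glrx, a glutaredoxin, was lower in A than in B (-0.29 ± 0.09, adjusted p = 0.0384) and in A than in C (-0.54 ± 0.09, adjusted p = 0.000412). Oplah, the 5-oxoprolinase gene, was lower in A than in B (-0.30 ± 0.07, adjusted p = 0.023) and higher in B than in C (0.51 ± 0.07, adjusted p = 0.000982).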

How the data were processed

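Per the labels' protocols, total RNA was isolated with RNeasy Plus Mini columns and sequencing libraries came from a TruSeq RNA v2 preparation. TopHat 1.3.3, HTSeq, DESeq 1.14.0 and build mm9 are listed, without role or order, per the submitters' processing notes. The deposited table holds the authors' normalized signal, gene counts divided by a factor per column. All values (100%) were whole multiples of that factor within 0.01 reads in all 30 columns, so reads could be recovered (18322631 to 24408946 per tumour).

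Columns were grouped by their letter. The 40 genes and all lists were chosen with earlier results of these data known. The 2 tumours of an animal were averaged as log2(value + 1), and letters were compared with limma 3.58.1 (mean-variance trend, R 4.3.3) over genes with a mean of at least 10, with Benjamini-Hochberg adjustment per contrast at 0.05. All members were named, with lowest, median and highest tumour per letter for those called in a letter contrast or the animal test, the 3 anchors and the members of highest and lowest mean, plus the 5 genes most like Nqo1. Limma also tested animals within letters (30 tumours) and slopes on Nqo1, Gclc and Gstm1 (letter as a covariate). Correlations had 100000 permutations within letters. Fits were tested on simulated data. Alternatives included edgeR 4.0.16 on recovered reads, other scalings, filters and pseudocounts, each animal left out, and, added after seeing the data, index use as a covariate and omission of A11, C11 and C21. edgeR called 2323 genes for A minus B, 6472 for A minus C and 2455 for B minus C. Shared 50-base words came from GENCODE M21 transcripts and start-site windows from RefSeq (GRCm38.p6). The values themselves rest on mm9. No column was left out.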

Additional observations from a re-analysis of the deposited data

Results flagged for a closer look

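Of 114 sets of 10 tumours (38 genes in 3 letters), 17 held a highest or lowest tumour whose gap to the next, as a share of the whole range, was over Dixon's 95% critical value, and chance gives about 1 in 20. Over all tested genes 8.64% of such sets did, against 14.9% for the members. Genes that vary together share tumours, so the sets are not independent. All values here are log2(value + 1).

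Tumour B50 gave 6 of the 17 values. It was highest of the B tumours for Gclm (9.83), Gsta2 (8.28), Ephx1 (12.25) and Abcc1 (9.84), and lowest for G6pdx (9.58) and Tkt (12.11). It also had the highest club cell marker sum among the B tumours, 2600800 normalized counts, whose part in these values was not tested.

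Tumour B10 was highest of the B tumours for Gstm4 (9.51) and Mgst2 (10.27), and B30 was lowest for Gstp1 (8.98). Among the A tumours, A10 was highest for Hmox1 (11.12), A11 was highest for Gstm5 (8.46) and A30 was lowest for Gsta2 (6.70). Among the C tumours, C21 was highest for Nqo1 (8.31) and Gsta2 (6.90), C10 was lowest for Mgst1 (13.78) and Aldh3a1 (7.43), and C31 was lowest for Gstm4 (8.06). A11 and C21 are among the 3 tumours with the highest skeletal muscle sums.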

How the results depend on the processing

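TMM and upper-quartile scaling kept all 41 member calls and moved the median of all genes by at most 0.0135. With index use as a covariate the counts were 148, 774 and 1498 over all genes and 1, 3 and 1 over members for A minus B, A minus C and B minus C, and 4 member differences turned, Cbr1 and Gss in A minus C (-0.0351 and -0.0647) and Gstm1 in A minus B and A minus C (-0.0522 and -0.0484). The cause was not tested, and this model has 2 more terms. With 30 tumours and the animal as a correlated block, B minus C called 10 members (4 higher, 6 lower), against 3 higher and 3 lower, and 3087 genes. Without letter as a covariate, slopes passed in 5487 genes and 20 members on Nqo1, 3639 and 11 on Gclc, and 5336 and 22 on Gstm1, so the Gclc count rests on removing the letters. Leaving out 1 animal gave 292 to 3433 genes and 4 to 17 members for A minus B, 5527 to 6710 and 21 to 23 for A minus C, and 1506 to 2868 and 3 to 8 for B minus C. Animals within letters ranged over 2650 to 4475 genes and 15 to 26 members. Slopes ranged over 263 to 763 genes and 3 to 10 members on Nqo1, 5 to 882 and 1 to 12 on Gstm1, and 0 to 3 and 0 to 0 on Gclc. The full counts were 2219, 6510 and 2468 for the 3 contrasts over all genes. edgeR on recovered reads kept 40 of the 41 member calls. No paired analysis was possible because no label ties animals across column letters. Without the minimum mean all 40 members were tested, and 12, 24 and 5 were called. Depth limits Gsta1 and Gstm3, the members of lowest mean, and each letter had 5 animals.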
